A study of Mus musculus with 6 samples.

Results

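Ubiquitin-specific proteases, named Usp genes in the mouse, were examined in regulatory T (Treg) cells that lacked both E2 enzymes of neddylation, Ube2m and Ube2f. The family was taken by name as every gene whose symbol in the platform annotation begins with Usp followed by a digit, which gave 55 of the 19505 symbols measured. Each of the 55 was read by 1 probe set. Treg cells restrain other immune cells, and the arrays compared the transcriptome of Treg cells without the 2 E2 enzymes with that of control Treg cells. The 3 deficient samples were CD4+YFP+ Treg cells sorted from the spleens and peripheral lymph nodes of Ube2m&Ube2f-deficient mice, described by the study as female Foxp3Cre/wt;Ube2m fl/fl;Ube2f fl/fl animals. The 3 control samples were sorted in the same way from Foxp3Cre/wt mice with both E2 genes intact. In both groups the mice were 8 to 12 weeks old, each sample pooled 2 to 3 mice, and Cre and YFP came from the Foxp3 locus, so that only Treg cells expressed them. Because Foxp3 lies on the X chromosome, the females kept unsorted Treg cells with the normal allele beside the sorted ones, which according to the study kept the animals free of inflammation. The sample titles name muscle, whereas tissue, cell type and protocol name sorted Treg cells.

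Ubiquitin is attached to proteins by a cascade of E1, E2 and E3 enzymes, and deubiquitinases take it off again. Usp proteins form the largest family of deubiquitinases and are cysteine proteases that differ in the proteins they bind, so that single members have been tied to histones, to the proteasome, to endosomes, to mitochondria or to signalling complexes. Neddylation, the attachment of the ubiquitin-like protein Nedd8, activates cullin-RING ligases, a large class of ubiquitin E3 enzymes, and Ube2m and Ube2f carry Nedd8 to the cullins. Several Usp proteins bind cullin ligases or the COP9 signalosome, which removes Nedd8 from cullins, and others act on Foxp3, the transcription factor that defines Treg cells. Not every gene with the name encodes an active enzyme, since Usp39 works in splicing without deubiquitinase activity and Usp6nl encodes a GTPase-activating protein for Rab proteins.

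The deposited values were log2 signals of 22206 probe sets on Clariom S arrays, with array medians between 4.89 and 5.11. Pearson correlations over all probe sets were 0.982 to 0.990 among deficient arrays, 0.988 to 0.993 among control arrays and 0.975 to 0.985 between the groups. The targeted gene Ube2f had log2 signals of 9.70, 9.72 and 9.82 in deficient cells, against 11.91, 11.82 and 11.90 in control cells, and fell by 2.13 log2 units (limma, SE 0.16, adjusted p = 0.000263). No probe set was annotated to Ube2m or Foxp3, and both are not analysed here. All 4 measured Treg markers and all 6 measured T cell markers were above the silent-gene level defined below. The Treg markers averaged 13.66 to 13.98 in deficient and 14.25 to 14.52 in control arrays, and 2 of the 4 were lower in deficient cells, Ctla4 by 1.49 and Ikzf2 by 0.95 log2 units (adjusted p = 0.00432 and 0.0446). Of the other 2, Il2ra was separated the other way, with 11.30, 11.06 and 11.29 in deficient and 10.61, 10.63 and 10.62 in control cells (difference 0.60, adjusted p = 0.135), and Tnfrsf18 differed by -0.35 (adjusted p = 0.665). The 6 myeloid markers averaged 4.06 to 4.72 in deficient and 3.99 to 4.04 in control arrays, none was above the silent level in both groups, and none passed the test. The largest of their differences was that of Lyz2, a lysozyme of macrophages and neutrophils, with signals of 4.47, 5.88 and 5.75 in deficient and 4.26, 4.60 and 4.55 in control cells (adjusted p = 0.308). None of the 4 muscle markers was above the silent level in both groups, and they averaged 4.11 to 4.34 in deficient and 4.02 to 4.12 in control arrays. Among them Myh4 had 3.47, 3.97 and 3.52 in deficient and 3.06, 2.96 and 2.94 in control cells (difference 0.67, adjusted p = 0.147), Acta1 was also separated, with a difference of 0.26, and Ckm and Mb differed by -0.19 and -0.11 with overlap. No marker of B cells, dendritic cells, NK cells, CD8 T cells or red cells passed the test. The NK marker Klrb1c, the CD8 T cell marker Cd8b1 and the B cell marker Cd79b were above the silent level in both groups. Klrb1c was uneven within the groups, with 5.06, 7.71 and 5.03 in deficient and 6.98, 5.01 and 5.79 in control cells. Ncr1, also an NK marker, was likewise highest in deficient array 2 and control array 1, at 5.59 and 4.72. A fit without these 2 arrays is among the alternatives below. The part of these marker differences in the results on the Usp genes was not tested.

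No Usp gene rose or fell in the deficient cells once p-values were adjusted, at a limit of 0.05 (limma with Benjamini-Hochberg adjustment over all probe sets). At this threshold 0.581% of all probe sets were higher in deficient cells and 2.27% were lower, so that 0 of 55 lay near the background in both directions. At the limits the study used, a fold above 1.5 with p under 0.05 before adjustment, 2 members (3.64%), Usp18 and Usp3, were higher, against 3.24% of all probe sets. None was lower at that threshold, against 5.82% of all probe sets. With an unadjusted p under 0.05 alone, 5 members (9.09%) passed, against 12.9% of all probe sets, and these were Usp18, Usp3, Usp36, Usp17le and Usp24. The median difference of the 55 genes was 0.017 log2 units, with 29 differences above 0 and 26 below, and the median over all probe sets was 0.023. The lowest difference was -0.59, in Usp28, and the highest was 0.83, in Usp18.

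How large a change of the signal the arrays leave possible can be read from the 95% confidence interval of each difference. For 50 of the 55 genes (90.9%) the whole interval lay within 1 log2 unit of 0, against 79.6% of all probe sets, and the exceptions were Usp3, Usp18, Usp28, Usp36 and Usp37. For 16 genes (29.1%) it lay within a fold of 1.5 in either direction, that is within 0.585 log2 units, against 26.1% of all probe sets. These counts include genes too dim to be told from silent ones, where a narrow interval limits the signal and says nothing of the RNA. Among the 39 members above the silent-gene level, which is set out below, the interval lay within 1 log2 unit for 34 (87.2%) and within a fold of 1.5 for 10 (25.6%), against 75.0% and 20.8% of the 8599 genes above that level. Those 10 included Usp5, which takes apart free ubiquitin chains, Usp8, a deubiquitinase of endosomes, Usp15, which binds the COP9 signalosome, and Usp39. Among the 39 members above the silent level the median standard deviation within a group was 0.239 log2 units and the median size of the difference was 0.187, against 0.266 and 0.237 over the genes above that level.

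**Figure D1:**
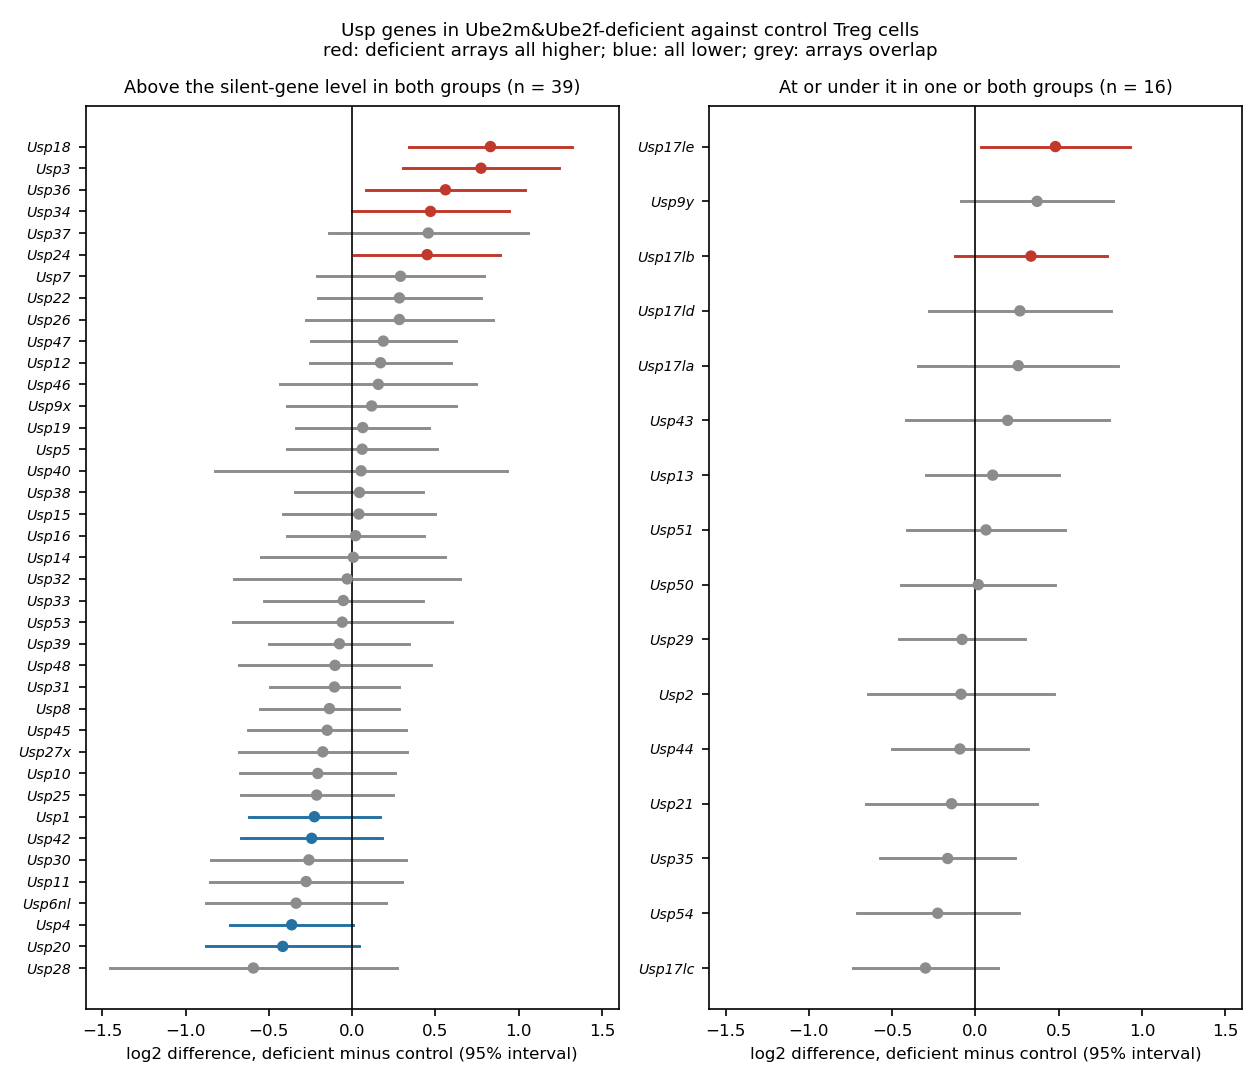
Log2 difference (deficient minus control) with its 95% confidence interval from limma for the 39 Usp genes above the silent-gene level in both groups (left) and the 16 others (right), 3 arrays per group. Red genes had all deficient arrays above all control arrays, blue genes the reverse, and the points run from 0.83 in Usp18 to -0.59 in Usp28.

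A silent-gene level was set from olfactory receptors, which T cells are not known to use, as the 95th percentile of the mean log2 signals of their 1091 probe sets, 5.39. By it 39 Usp genes were above the silent level in both groups, Usp21 and Usp54 lay on either side of it, and 14 lay at or under it in both. The 14 were Usp2, Usp9y, Usp13, Usp29, Usp35, Usp43, Usp44, Usp50, Usp51 and the 5 Usp17l genes la, lb, lc, ld and le. Usp9y is the Y-linked relative of the X-linked Usp9x, and its signals were 3.10, 2.81 and 3.35 in deficient and 2.88, 2.57 and 2.70 in control cells. Female mice, as the study described them, carry no Y chromosome, so the Usp9y difference of 0.37 cannot be read as RNA of the gene. Usp29, an imprinted gene, had 2.51, 2.47 and 2.63 in deficient and 2.66, 2.54 and 2.65 in control cells. Signals at this level say little about the RNA, and differences among the 14 genes, which spanned -0.30 in Usp17lc to 0.48 in Usp17le, are given as signals only. Usp49, Usp17le-ps, Usp46os1 and Usp46os2 were not analysed here.

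The arrays of deficient and control cells did not overlap for 11 members. In 7 of them (12.7%) all 3 deficient arrays were above all 3 control arrays, against 8.22% of all probe sets, and in 4 (7.27%) they were below, against 9.97%. The higher ones were Usp3, Usp18, Usp24, Usp34, Usp36, Usp17lb and Usp17le, and the lower ones Usp1, Usp4, Usp20 and Usp42. Of these Usp17lb and Usp17le lay under the silent level. Among the 39 members above it 5 were separated higher and 4 lower, and the shares over all genes above that level were not computed. An exact permutation test of 3 against 3 arrays cannot give a two-sided p below 0.1, so none of these separations could pass it.

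**Figure D2:**
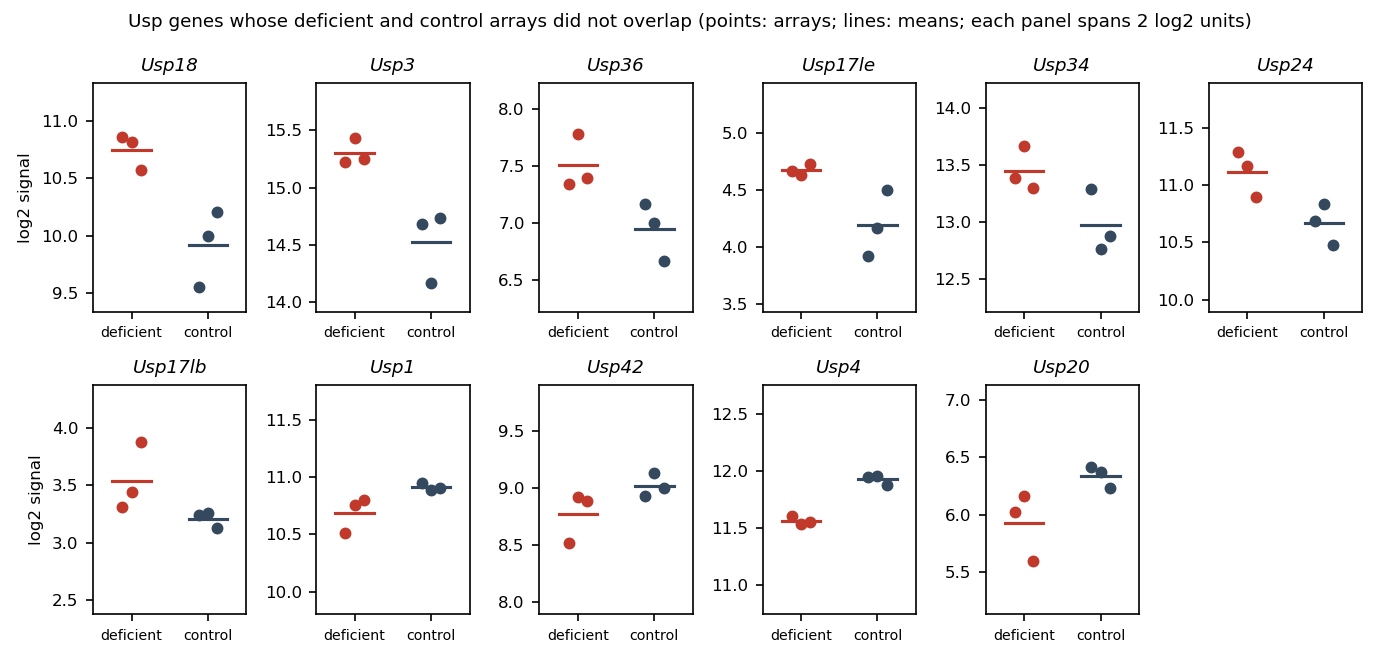
Log2 signal of each array (points) and group mean (lines) for the 11 Usp genes whose groups did not overlap, deficient left of control, each panel 2 log2 units high. Usp4 had 11.54 to 11.61 in deficient and 11.88 to 11.96 in control arrays, while in Usp34 and Usp42 the closest arrays of the groups nearly touched.

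Usp18 removes the ubiquitin-like protein ISG15 from its targets, binds the type I interferon receptor and is itself an interferon-induced gene. Its log2 signals were 10.86, 10.82 and 10.57 in deficient cells, against 9.55, 10.00 and 10.21 in control cells. Every deficient array was above every control array, and control array 1 was the lowest. The means were 10.75 ± 0.16 and 9.92 ± 0.34 (SD, n = 3 each), a difference of 0.83 log2 units (SE 0.22, 95% confidence interval 0.34 to 1.32), or 1.78-fold, with an adjusted p of 0.102 in limma. The 15 other settings tried, among them leaving out each array in turn, gave differences from 0.61 to 0.98 and adjusted p from 0.0772 to 0.374. In bulk RNA, fewer cells of a type and less RNA per cell cannot be told apart, and this holds for every gene here.

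Of 14 listed genes of ISG15 conjugation and the interferon response 12 were measured, and none passed the test in either direction. Their median difference was -0.01, with 6 above and 6 below 0. Oasl2, an interferon-induced gene of the oligoadenylate synthetase family, was nearest to the threshold, with 8.22, 7.68 and 7.47 in deficient and 7.26, 6.88 and 7.13 in control cells, a difference of 0.70 (adjusted p = 0.214). Ube2l6, the E2 enzyme for ISG15, had 8.54, 8.79 and 8.51 in deficient and 9.17, 9.78 and 8.63 in control cells, a difference of -0.58 (adjusted p = 0.450). Mx1, an antiviral GTPase, differed by -0.48 (adjusted p = 0.376). Isg15 itself lay under the silent level in all 6 arrays, with 4.89, 4.99 and 4.90 in deficient and 4.70, 4.90 and 4.80 in control cells. Usp18 thus had the largest difference of these 13 genes. Its interval overlapped those of the listed genes other than Uba7, Ube2l6 and Mx1.

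**Figure D3:**
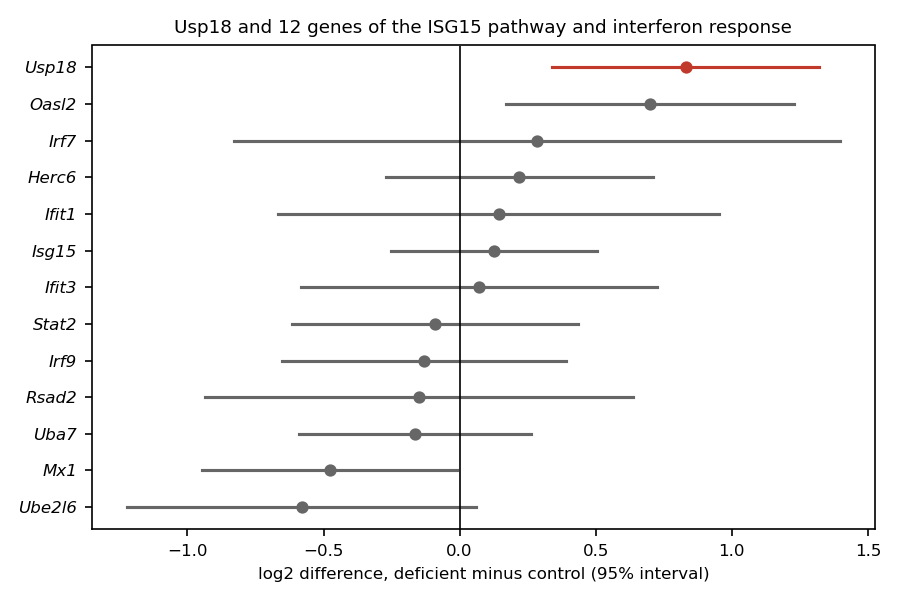
Log2 difference (deficient minus control) with 95% confidence intervals for Usp18 (red) and 12 genes of ISG15 conjugation and the interferon response (grey). Usp18 at 0.83 and Oasl2 at 0.70 had intervals above 0, Mx1 at -0.48 had one just below it, and the other intervals included 0.

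Usp3 removes ubiquitin from histones H2A and H2B and has been studied in the DNA damage response. Its log2 signals were 15.22, 15.43 and 15.25 in deficient cells, against 14.68, 14.17 and 14.73 in control cells. All deficient arrays were above all control arrays, with control array 2 the lowest. The difference was 0.77 log2 units (SE 0.21, 95% confidence interval 0.31 to 1.24), or 1.71-fold, with an adjusted p of 0.109. It was the one member that passed in any other setting, with an adjusted p of 0.0477 when limma's variance prior followed the signal and was fitted robustly, and the range over all settings was 0.0477 to 0.296. Usp16, another protease of histone H2A, had 10.47, 10.40 and 10.14 in deficient and 10.39, 10.19 and 10.37 in control cells, which overlapped, and differed by 0.02.

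The 250 bases before the annotated start of 3 members are shown because these genes stand for the cases found here, Usp3 higher and Usp4 lower in deficient cells without overlap, and Usp17lb under the silent level. They come from RefSeq (GRCm38.p6) and are given 5′ to 3′ on the strand of the gene, with GC boxes, the Sp1-type motif GGGCGG or its reverse complement CCGCCC, in capitals.
Usp3 (chr9:66593116-66593365, minus strand): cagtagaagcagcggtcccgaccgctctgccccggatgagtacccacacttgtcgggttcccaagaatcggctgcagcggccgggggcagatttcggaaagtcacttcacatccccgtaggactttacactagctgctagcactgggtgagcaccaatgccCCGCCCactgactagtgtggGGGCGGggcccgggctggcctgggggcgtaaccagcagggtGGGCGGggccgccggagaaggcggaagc
Usp4 (chr9:108347581-108347830, plus strand): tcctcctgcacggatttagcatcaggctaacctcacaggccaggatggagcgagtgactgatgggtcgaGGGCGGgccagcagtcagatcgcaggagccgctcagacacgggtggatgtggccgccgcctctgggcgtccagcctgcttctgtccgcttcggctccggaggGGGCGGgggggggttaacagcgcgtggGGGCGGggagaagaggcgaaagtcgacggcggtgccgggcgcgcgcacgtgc
Usp17lb (chr7:104842584-104842833, minus strand): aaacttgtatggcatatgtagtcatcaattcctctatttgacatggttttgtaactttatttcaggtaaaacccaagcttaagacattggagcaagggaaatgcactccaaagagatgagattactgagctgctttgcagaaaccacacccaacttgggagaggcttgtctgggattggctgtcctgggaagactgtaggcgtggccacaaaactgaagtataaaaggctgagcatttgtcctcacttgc
The windows of Usp3 and Usp4 each held 3 GC boxes, with 18 and 26 CpG dinucleotides. Neither difference passed the adjusted threshold (adjusted p = 0.109 and 0.398 in limma), and a link between window and difference was not tested. The window of Usp17lb held no GC box and 1 CpG. A match of these letters describes the window and does not show that a factor binds there.

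Of the 55 members 42 had a promoter in the RefSeq table, and the ones without were Usp1, Usp5, Usp9x, Usp14, Usp17le, Usp18, Usp22, Usp33, Usp39, Usp42, Usp43, Usp44 and Usp53. A GC box on either strand was found in 26 of the 42 windows (61.9%), against 8901 of 27025 windows of the same length before all RefSeq genes in the table (32.9%). The median window of a Usp gene held 22.5 CpG and 64.4% G and C, against 6 CpG and 52% over all genes, and each GC box contains a CpG of its own. Of the 42 Usp windows 29 belonged to genes above the silent level, whereas the windows of all genes were not limited in this way. Shares over all genes above that level were not computed, so these contrasts are not shown to be particular to the family. Within the family 21 of 29 genes above the silent level (72.4%) had a GC box, against 5 of the 13 others (38.5%), and the medians were 25 and 5 CpG. The 4 Usp17l genes in the table, la, lb, lc and ld, had 1, 1, 1 and 0 CpG and no GC box. They are near-identical copies and are counted singly among the 13 others, so the 13 are not independent of one another. Usp2, Usp13 and Usp35 were under the silent level with 25, 28 and 25 CpG and at least 1 GC box each, and Usp26, a gene known from the germ line, was above it with 5 CpG and no GC box. Usp10, Usp11, Usp40 and Usp16 were also above the silent level without a GC box, with 6, 5, 8 and 12 CpG. So were Usp25, Usp30 and Usp48, with 47, 20 and 25 CpG.

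**Figure D4:**
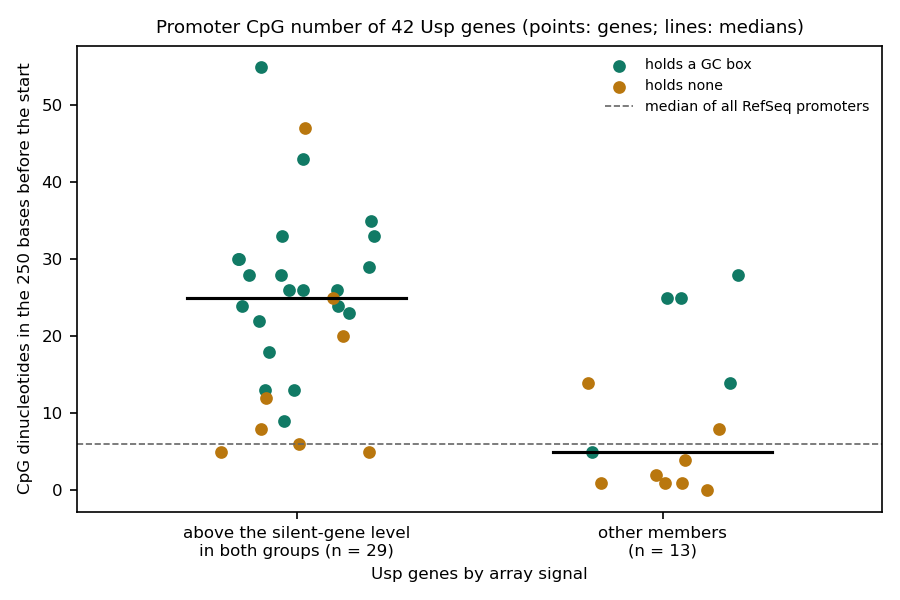
CpG dinucleotides in the 250 bases before the start of 42 Usp genes (points), for the 29 above the silent-gene level in both groups and the 13 others, with medians of 25 and 5 as black lines. The dashed line is the median of all RefSeq promoters in the table, 6, and green points hold a GC box.

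Among the proteases that act on Foxp3 or on Treg stability, Usp7, Usp21, Usp22 and Usp44, none passed the test and none was separated between the groups, with a median difference of 0.095. Usp7, which stabilises Foxp3 and also acts on the p53 ligase Mdm2, had 14.41, 14.63 and 14.11 in deficient and 14.40, 14.05 and 13.83 in control cells. Usp22, the ubiquitin protease of the SAGA transcription complex, which removes ubiquitin from histone H2B and maintains Foxp3 expression, had 11.36, 10.94 and 11.19 in deficient and 10.74, 10.67 and 11.23 in control cells. The differences of 0.29 and 0.28 had intervals of -0.21 to 0.79 and -0.21 to 0.78, so that changes of 1 log2 unit lay outside both (adjusted p = 0.692 and 0.693). Usp21 lay around the silent level, with 5.27, 5.55 and 4.98 in deficient and 5.13, 5.40 and 5.70 in control cells. Usp44, which also acts in the spindle checkpoint, lay under it in all 6 arrays, between 2.98 and 3.07 in deficient and between 2.89 and 3.28 in control cells. Usp27x and Usp51, which in human cells can take the place of Usp22 on histone H2B, differed by -0.18 and 0.06, and the 3 measured partners of the SAGA module, Atxn7, Atxn7l3 and Eny2, differed by -0.30 to -0.07 without passing.

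Of the 9 members tied to cullin ligases or to the COP9 signalosome, Usp11, Usp15, Usp20, Usp24, Usp28, Usp33, Usp37, Usp47 and Usp48, none passed, and the median difference was -0.053. Usp28, known in human cells for opposing the cullin ligase receptor Fbw7 on Myc, had 7.37, 7.99 and 6.31 in deficient and 8.08, 7.70 and 7.67 in control cells. Deficient array 3 stood lowest and deficient array 2 lay within the control range, and the difference of -0.59 had an interval of -1.45 to 0.27 (adjusted p = 0.615). It was -0.14 without deficient array 3 and -0.98 without deficient array 2, so that its place as the lowest of the family rests on 1 array. Usp37, which acts on cyclin A in human cells, had 8.46, 8.84 and 7.91 in deficient and 7.88, 7.73 and 8.23 in control cells, a difference of 0.46 with an interval of -0.14 to 1.05 (adjusted p = 0.555), and 0.24 without deficient array 2 and 0.70 without deficient array 3. These are among the least precise members, and a change beyond 1 log2 unit was within both intervals.

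Usp24 was separated in the other direction from Usp20 within the same list. Usp24, a large protease, had 11.29, 11.17 and 10.90 in deficient cells, against 10.69, 10.84 and 10.48 in control cells, without overlap, and was 0.45 log2 units higher (SE 0.19, adjusted p = 0.367). Usp20, which with Usp33 has been tied to the VHL ligase and to receptor recycling in human cells, had 6.02, 6.16 and 5.59 in deficient cells, against 6.42, 6.37 and 6.23 in control cells. It was 0.42 log2 units lower (SE 0.20, adjusted p = 0.448), its signals were close to the silent level, and without deficient array 3 the difference was -0.25. Usp15 differed by 0.04 and Usp47, which binds the cullin ligase receptor beta-TrCP, by 0.19, with arrays of both genes overlapping. Usp33, Usp48 and Usp11 differed by -0.05, -0.10 and -0.28, also with overlap.

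Of the 10 members placed in T cell receptor or NF-kB signalling none passed, with a median difference of -0.032, and Usp18 and Usp34 were higher and Usp4 lower without overlap. Usp4, which in human cells acts on the TGF-beta receptor and on NF-kB signalling, had 11.61, 11.54 and 11.55 in deficient cells, against 11.95, 11.96 and 11.88 in control cells. Both groups had small spreads, 0.04 each (SD, n = 3), and the difference of -0.36 log2 units, 1.29-fold lower, had an interval of -0.73 to 0.0058 and an adjusted p of 0.398 in limma. That interval rests largely on limma's prior for the spread of all probe sets, an SD of 0.267. The methods' t-test, which uses the spread of the gene alone, gave an adjusted p of 0.0905, and the other settings ran up to 0.671. Usp34, which acts on axin in Wnt signalling, had 13.38, 13.66 and 13.30 in deficient cells, against 13.29, 12.76 and 12.88 in control cells. The lowest deficient array and the highest control array nearly met, and the gene was 0.47 log2 units higher (SE 0.21, adjusted p = 0.390). The others of the list, Usp8, Usp9x, Usp10, Usp12, Usp25, Usp31 and Usp38, differed by -0.21 to 0.17 with overlapping arrays. Usp9x, which T cells of mice need for full receptor signalling, had 12.38, 12.28 and 12.35 in deficient and 12.58, 12.28 and 11.80 in control cells.

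The 5 members listed for TGF-beta and SMAD signalling, Usp4, Usp9x, Usp11, Usp15 and Usp26, had a median difference of 0.04, and none passed. Usp26 differed by 0.28, with overlapping arrays and an interval of -0.28 to 0.84. In the UAF1 group, proteases switched on by the WD40 protein Wdr48 (UAF1), Usp1 was lower without overlap and Usp12 and Usp46 overlapped. Usp1, which acts on the DNA repair proteins Fancd2 and PCNA, had 10.51, 10.76 and 10.80 in deficient cells, against 10.95, 10.89 and 10.91 in control cells, a difference of -0.23 (adjusted p = 0.692), or -0.14 without deficient array 1. Usp12 and Usp46 differed by 0.17 and 0.16, and Wdr48 by -0.18 (adjusted p = 0.814). None of the 8 members listed for DNA damage or the cell cycle passed, and Usp3 and Usp1 were the ones separated there, in opposite directions.

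Usp36, the ubiquitin protease of the nucleolus, and Usp42, its closest relative, were separated in opposite directions. Usp36 had 7.34, 7.78 and 7.40 in deficient cells, against 7.17, 7.00 and 6.67 in control cells, and was 0.56 log2 units higher (SE 0.21, 95% confidence interval 0.08 to 1.04, adjusted p = 0.284). Usp42 had 8.52, 8.92 and 8.89 in deficient cells, against 8.93, 9.13 and 9.00 in control cells, and was 0.24 log2 units lower (adjusted p = 0.696), with the closest deficient and control arrays, 8.92 and 8.93, nearly equal. Without deficient array 1 the difference of Usp42 was -0.12. The log2 ratio of Usp36 to Usp42 within an array was -1.18, -1.14 and -1.49 in deficient cells, against -1.76, -2.13 and -2.33 in control cells. Only the change of this ratio between groups, 0.80, has a meaning on these arrays, because signals of different probe sets are not on one scale.

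The same ratio was taken for 11 listed pairs of related Usp genes with both members above the silent level, and 3 pairs were separated between the groups. Besides Usp36 and Usp42 these were Usp4 over Usp15, with a change of -0.40, and Usp20 over Usp33, with a change of -0.36. Usp4 over Usp15 was -2.66, -2.82 and -2.85 in deficient and -2.64, -2.03 and -2.45 in control cells. Usp20 over Usp33 was -4.59, -4.51 and -4.78 in deficient and -4.43, -3.89 and -4.47 in control cells. The ratios are given as a description, since the exact permutation test cannot give 3 against 3 arrays a p below 0.1 and no ratio could have passed it. Adjusted over the 11 pairs, its p was 0.367 for each of the 3 separated pairs. Each of these 3 held a gene already separated on its own, Usp36 and Usp42, Usp4 or Usp20. How often the ratios of other gene pairs separate was not computed. The 8 other pairs, among them Usp12 and Usp46, Usp7 and Usp47, and Usp25 and Usp28, overlapped.

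None of the members named next from the role lists passed, and all but Usp34, described above, overlapped between the groups. Usp5, Usp13 and Usp14, which act on free ubiquitin chains or at the proteasome, differed by 0.06, 0.10 and 0.0067. Usp14, the protease bound to the proteasome, had 8.81, 7.93 and 8.19 in deficient and 8.24, 8.23 and 8.44 in control cells. Usp8, Usp2 and Usp6nl, listed for endosomes and receptor sorting, differed by -0.14, -0.09 and -0.34, and Usp6nl had 8.89, 8.81 and 8.07 in deficient and 8.94, 8.89 and 8.95 in control cells. Usp30, Usp35, Usp27x and Usp19, grouped in the list for mitochondria and the endoplasmic reticulum, differed by -0.26, -0.17, -0.18 and 0.06. Usp39 had 10.37, 10.62 and 10.78 in deficient and 10.63, 10.58 and 10.79 in control cells. In the list for Hippo, Wnt and autophagy the median difference of the 8 members was -0.042, with 3 above 0 and 5 below. The 5 below were Usp10, Usp32, Usp33, Usp53 and Usp54, between -0.23 and -0.03. The highest, 0.47, was that of Usp34, the 1 member of this list that was separated.

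Outside the role lists, Usp40, Usp43, Usp45 and Usp50 overlapped between the groups, with differences of 0.05, 0.19, -0.15 and 0.02. Usp40 varied most among the control arrays of the family, with 7.37, 6.54 and 7.71 in deficient and 7.21, 6.46 and 7.79 in control cells, and its interval ran from -0.82 to 0.93. The 5 Usp17l genes are near-identical copies on chromosome 7 of a protease that cytokines induce in mouse blood cells, and a probe set for one may read another. Usp17le had 4.67, 4.63 and 4.73 in deficient and 3.92, 4.17 and 4.50 in control cells, and Usp17lb had 3.31, 3.44 and 3.88 in deficient and 3.24, 3.26 and 3.13 in control cells. Both were separated between the groups, and both stayed under the silent level in all 6 arrays.

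The arrays differed in how often they held the lowest signal of their group. Among the 39 members above the silent level, deficient array 3 was the lowest deficient array for 16 (41.0%), against 39.5% of the 8599 genes above it, array 1 for 14 (35.9%), against 25.4%, and array 2 for 9 (23.1%), against 33.7%. Control array 2 was the lowest control array for 18 members (46.2%), against 36.4% of those genes, control array 1 for 5 (12.8%), against 29.1%, and control array 3 for 15 (38.5%), against 33.0%. The differences of Usp3 and Usp34, for which control array 2 was the lowest, were 0.60 and 0.36 without it, and the difference of Usp18, for which control array 1 was the lowest, was 0.65 without that array.

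Of the 50 other deubiquitinases and related proteases that were listed and measured, 1 was higher and 0 were lower at an adjusted p under 0.05, and the median difference was 0.022. These shares of 2% and 0% stand beside the 0.581% and 2.27% of all probe sets, and at an unadjusted p under 0.05 there were 9 (18%), beside 12.9%. The one called was Stambpl1, a zinc metalloprotease of the JAMM class related to the endosomal protease Stambp, with 12.30, 12.43 and 12.35 in deficient cells, against 11.56, 11.48 and 11.41 in control cells. It was 0.88 log2 units higher (SE 0.17, 95% confidence interval 0.50 to 1.25, adjusted p = 0.0274), or 1.84-fold. It passed in 5 of 15 other settings, where its adjusted p ran from 0.0159 to 0.132, and not when any 1 array was left out. Stambp was separated the other way, with 10.24, 10.05 and 9.69 in deficient and 10.62, 10.77 and 10.65 in control cells. Its difference of -0.69 did not pass (adjusted p = 0.139 in limma). The 3 listed genes with the fold of the family under other names, Cyld, Uspl1 and Pan2, differed by -0.32 to -0.11, and none passed.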

How the data were processed

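The authors deposited log2 signals, 1 per probe set and array, made with Affymetrix Expression Console 1.4 per the submitters' processing notes. For the background correction, normalization, summarisation and log base the method is not given in the sources consulted. The base was read as 2 because values lay between 2.06 and 19.9, and another base would change folds and not signs. The amplification of small RNA amounts can widen the spread of dim genes. Scanner intensities, scan dates and detection calls were not used. Of 22206 probe sets, 19572 had 1 symbol, 0 had several and 2634 were unnamed here.

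Groups followed the genotype label. The log2 values of all probe sets entered 1 linear model in limma 3.58.1 under R 4.3.3, without a filter and with group as its single term, followed by empirical Bayes moderation and Benjamini-Hochberg adjustment at 0.05. What the p-values measure is the spread among pooled samples. The fit was tested on simulated data. Precision is limited by the 6 arrays. Tables and figures were made in Python 3.11.15, and promoter sequences were RefSeq's of GRCm38.p6, matched by symbol.

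The Usp genes, the role lists, the list of other deubiquitinases and the related pairs were chosen with earlier results of these data known. Named were members past a threshold, members of the role lists, other listed genes past the adjusted threshold and Ube2f, and further genes were named after their values were seen. The alternatives changed the scaling (quantile normalization or median centring), the filter (the 40% of probe sets with the lowest signals left out), the variance (array weights, or a robust prior with an intensity trend), the test (the methods' t-test), the model (a block for the replicate number), the probe set of a symbol (their mean) and the arrays (each left out in turn). A fit without both deficient array 2 and control array 1 was added after seeing the data.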

Additional observations from a re-analysis of the deposited data

How the results depend on the processing

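Of the 15 alternatives 10 can change a difference, and over these 36 of the 55 Usp genes kept their direction, Usp30 reached 0.0 without deficient array 3 and 18 turned, all of them genes whose interval included 0. The other 5 leave the differences as they are and change the test alone, and the filter on dim probe sets removed 13 members. Usp3 was higher with an adjusted p of 0.0477 under an intensity trend with robust variance, so that 1 member passed there and 0 in each of the other 14. The median of the members stayed between -0.043 and 0.036, with -0.043 and 0.035 as the ends when 1 array was left out.

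The number of all probe sets called was less stable. Leaving out 1 array gave 46 to 81 higher and 269 to 431 lower, the methods' t-test 1 higher and 5 lower, and the fit without deficient array 2 and control array 1 gave 50 higher and 353 lower. Stambpl1 had adjusted p of 0.0737 to 0.113 when 1 array was left out, 0.0537 with median centring, 0.0867 with the methods' t-test and 0.0881 with the replicate block.

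With the replicate number as a block 70 probe sets were higher and 367 lower, and 0 Usp genes passed. Deviations of arrays that share a number correlated at -0.056, -0.24 and 0.29, so the numbers were not taken as pairs, and without a block 129 were higher and 503 lower.

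Signs turned as follows, in log2 units. With median centring the values were Usp14 at -0.02, Usp16 at -0.0067 and Usp50 at -0.01. With quantile normalization they were Usp31 at 0.0025, Usp32 at 0.091, Usp33 at 0.036, Usp39 at 0.011, Usp50 at -0.016 and Usp53 at 0.033. Without control array 1 and deficient array 2 they were Usp32 at 0.33, Usp33 at 0.01, Usp46 at -0.20, Usp48 at 0.065, Usp5 at -0.075, Usp50 at -0.12, Usp51 at -0.16 and Usp53 at 0.01. When 1 array was left out the ranges were Usp2 -0.33 to 0.12, Usp5 -0.025 to 0.22, Usp9x -0.093 to 0.30, Usp14 -0.24 to 0.20, Usp15 -0.12 to 0.18, Usp16 -0.047 to 0.12, Usp21 -0.28 to 0.0017, Usp32 -0.31 to 0.18, Usp33 -0.23 to 0.07, Usp38 -0.015 to 0.10, Usp39 -0.17 to 0.033, Usp40 -0.29 to 0.39, Usp46 -0.11 to 0.33, Usp48 -0.24 to 0.15, Usp50 -0.078 to 0.20, Usp51 -0.12 to 0.16 and Usp53 -0.30 to 0.20. The cause of these turns was not tested.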
